A study of Mus musculus with 7 samples.

Results

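The synaptic vesicle release machinery was followed here as 39 genes, chosen by symbol, that act between the arrival of a vesicle at the presynaptic membrane and its fusion. All 39 were among the 47729 genes of the deposited table, and all passed the filter of at least 10 counts in at least 3 libraries that 19684 genes passed. RNA came from the whole forebrain of mice at postnatal day 15 (P15), 4 samples of Lhx6+/- mice (control) and 3 samples of Lhx6-/- mice (mutant), all F1(C57BL/6 X 129Sv). Each sample was a pool of 2 animals, so that errors are spreads between pools. The null allele (*Lhx6*tm2Vpa) was carried in every cell, and the control mice had 1 copy of it, so no group was wild-type. The comparison addressed how the forebrain differs once *Lhx6*, a LIM homeodomain transcription factor needed by cortical interneurons born in the medial ganglionic eminence (MGE), is lost.

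Transmitter leaves a nerve terminal when a synaptic vesicle fuses with the presynaptic membrane. Rab3 proteins and their effectors bring vesicles to the active zone, where Munc13, RIM, bassoon and piccolo proteins dock them and make them ready. The SNARE proteins syntaxin, SNAP-25 and synaptobrevin then join the vesicle to the membrane, complexins hold or help the assembled SNAREs, and synaptotagmins and Doc2 proteins couple fusion to calcium. Synapsins, synaptophysin and SV2 proteins sit on the vesicle itself. Most of these proteins come in several forms, and neuron types differ in the forms they use. MGE-derived interneurons include the parvalbumin-expressing basket cells, whose fast terminals are known for *Syt2*, a synaptotagmin that is not among the 39 genes and is described after them.

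RefSeq promoters (build GRCm38.p6) were matched by symbol for 27 of the 39 genes, 8 of them among those that differed between genotypes. The 250 bases before each start were searched on both strands for short motifs, in 37 promoters of these genes and in 32851 promoters overall. TAATTA, the core bound by LIM homeodomain proteins, occurred in 4.84% of all promoters and among the release genes only in that of *Syt6*, which was higher in mutants. TATAAA, the TATA box, occurred in 12.4% of all promoters and in those of *Rab3b*, which was lower in mutants, and *Sv2b*. The promoter of *Syn1*, whose level did not pass the test, held both TGACGTCA, the cAMP response element (1.55% of all promoters), and TTCAGCACC, the start of the element bound by the neuronal repressor REST (0.301%). GCGTGGGCG, an Egr element (0.536% of all promoters), was found only in that of *Unc13a*, and GGGCGG, the GC box (32.7%), in 23 of the 37. GCGTGGGCG and GGGCGG share letters in part, and a match describes the letters of a promoter and no site of binding. The sequences are given 5′ to 3′ on the strand of the gene for 1 gene that was higher, 1 that was lower and 1 that was not called, with these motifs other than the GC box in capitals, and they end before the first base of the gene in the deposited annotation. They are *Syt6* at chr3:103574995-103575230 (plus strand), *Rab3b* at chr4:108878820-108879062 (plus strand) and *Syn1* at chrX:20921005-20921168 (minus strand).
Syt6: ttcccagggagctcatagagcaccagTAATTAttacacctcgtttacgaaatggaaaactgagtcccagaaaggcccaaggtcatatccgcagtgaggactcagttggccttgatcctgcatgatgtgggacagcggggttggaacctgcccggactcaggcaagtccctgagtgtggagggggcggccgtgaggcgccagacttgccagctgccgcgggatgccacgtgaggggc
Rab3b: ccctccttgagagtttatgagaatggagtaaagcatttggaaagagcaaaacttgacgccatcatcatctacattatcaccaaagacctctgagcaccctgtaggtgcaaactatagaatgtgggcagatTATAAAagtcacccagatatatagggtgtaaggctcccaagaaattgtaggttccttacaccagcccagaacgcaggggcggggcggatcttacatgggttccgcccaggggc
Syn1: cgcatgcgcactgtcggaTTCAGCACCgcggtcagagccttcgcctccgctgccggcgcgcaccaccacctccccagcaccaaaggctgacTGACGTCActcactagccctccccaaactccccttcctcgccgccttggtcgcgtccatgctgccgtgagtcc

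Of the 39 genes, 12 passed the test between genotypes (quasi-likelihood test of edgeR, threshold of 0.05 after Benjamini-Hochberg adjustment over all tested genes), a share of 30.8%, where 4.85% of all tested genes did. Leaving out mutant library 5, 12 or 13 left 8, 5 and 5 of the 39 called, with 458, 387 and 302 calls over all genes in place of 954. Among the 11538 tested genes at least as abundant as the least abundant of the 39, the share was 5.60%. The calls went both ways. *Syt6*, *Syt10*, *Syt12*, *Doc2a*, *Unc13b* and *Rph3a* were higher in mutants, 6 genes where 2.97% of all tested genes were higher, and *Syt17*, *Doc2b*, *Stx1a*, *Unc13c*, *Rims3* and *Rab3b* were lower, 6 genes where 1.87% of all were lower. The median log2 fold change over the 39 genes was -0.07, beside -0.01 over all tested genes, with 15 genes above 0 and 24 below. Of the 39 genes, 11 had an absolute log2 fold change of at least 0.5, which is 28.2% of them, beside 15.3% of all tested genes and 6.20% of those at least as abundant. In 14 of the 39 the mutant libraries lay all above or all below the control libraries, which held for 19.7% of all tested genes; they were the 12 called genes, *Syt9* and *Sv2c*. Taken as a sum per kb of exon over all 39 genes, the level was between 112497 and 115277 in controls and between 105019 and 112834 in mutants, so the summed levels overlapped.

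**Figure D1:**
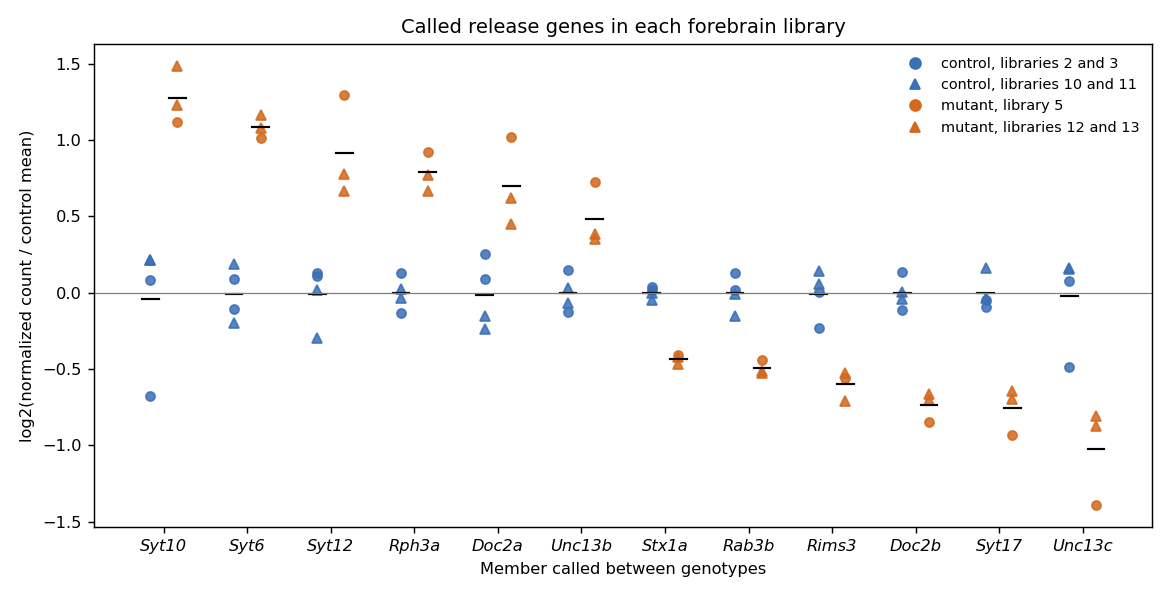
The plot gives, for each of the 12 called release genes, the log2 ratio of the normalized count in each library to the control mean (vertical axis), with controls in blue, mutants in orange, circles for libraries 2, 3 and 5, triangles for libraries 10 to 13 and black bars for group means. For every gene shown, the 3 mutant libraries lie on one side of the 4 control libraries.

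Libraries summed to between 32556304 and 38069151 expected counts. Values are given as normalized counts, that is counts scaled to a common library size, for control libraries 2, 3, 10 and 11 and mutant libraries 5, 12 and 13, in that order, and log2 fold changes are mutant against control with their standard error (SE). *Lhx6* itself had between 476 and 615 normalized counts in controls and between 70.1 and 76.6 in mutants. The first principal component, with 39.6% of the variance, set libraries 2, 3 and 5 apart from 10 to 13, and both sets of numbers held both genotypes. No label says what the numbers stand for. The labels list sex and RNA quality for each pool, which the columns do not name, so the labels set neither beside a library. The sex of a library was not read from its counts.

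Markers of other cells moved with the genotype, and in whole tissue fewer cells of a type and less RNA per cell cannot be told apart. Of 9 genes of MGE-derived interneurons, 7 fell and 1 rose, with a summed normalized count of 12817 to 14448 in controls and 4915 to 5818 in mutants. Of 7 genes of interneurons from the caudal ganglionic eminence (CGE), 4 rose, with sums of 9184 to 11909 and 15323 to 19191. *Cnr1* gave most of these sums (means of 6257 and 11398), and *Vip*, *Adarb2* and *Ndnf* were the others that rose. *Prox1*, of the same list, was not called (log2 fold change -0.07, edgeR). Of 5 genes of all GABAergic neurons 1 rose and 1 fell, with sums of 32009 to 37638 and 30244 to 38347. Of 8 genes of neurons of all classes 2 fell, with sums of 145939 to 162328 in controls and 140866 to 148866 in mutants. Of 8 cortical excitatory genes 1 rose and 1 fell, with sums of 20629 to 24016 and 19613 to 22588, and of 5 layer 6 and subplate genes 1 rose, with sums of 4069 to 4870 and 4887 to 6329. Of 6 oligodendrocyte genes 3 fell (234093 to 301285 in controls, 167771 to 206215 in mutants), and of 6 astrocyte genes 1 rose (186981 to 281852 and 305634 to 363555). Most of the astrocyte sums came from *Slc1a2* (means of 197129 and 267793), which was not called. Striatal, thalamic, microglial and endothelial lists had 0 calls by edgeR, with 0, 1, 2 and 3 genes at an unadjusted p of 0.05 or less; DESeq2 called 1 endothelial gene and limma-voom none. With the split of library numbers as a covariate, edgeR called 3 endothelial, 1 microglial, 3 astrocyte, 6 oligodendrocyte, 4 GABAergic, 3 cortical excitatory and 2 layer 6 and subplate genes, beside 2205 of all tested genes. The endothelial sums were 6082 to 6651 in controls and 7736 to 7958 in mutants, the microglial 9934 to 10353 and 8336 to 9767, and the thalamic 1729.9 to 2197 and 1568 to 1757. No marker was at 0 in a genotype, and the part of these cells in the differences of the release genes was not tested.

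The synaptotagmins and Doc2 proteins, some of which bind calcium and trigger fusion while others do not bind it, held 6 of the 12 calls among 14 genes, 4 higher and 2 lower. The largest fold increase among them was that of *Syt10* (ENSMUSG00000063260, chr15:89782393-89841860), a calcium sensor known for the secretion of insulin-like growth factor by olfactory bulb neurons. It had 151, 89.4, 166 and 166 normalized counts in controls and 310.4, 401 and 335 in mutants. Every mutant library was above every control library, and control library 3 was the lowest. The difference was 1.28 on the log2 scale (SE 0.215, 95% interval 0.79 to 1.77, adjusted p = 0.0128, edgeR), and the call was lost without mutant library 12 (adjusted p = 0.0621, edgeR) or 13 (0.0584, edgeR).

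*Syt6* (ENSMUSG00000027849, chr3:103575231-103645569), a synaptotagmin also known from the sperm acrosome, had 861, 986, 808 and 1057 normalized counts in controls and 1872, 2076 and 1964 in mutants. The mutant libraries were close to each other and well above the controls. Its mean went from 928 ± 114 to 1971 ± 102 (SD, n = 4 and 3 pools), which is 1.09 on the log2 scale (SE 0.104, 95% interval 0.85 to 1.32, adjusted p = 0.00104, edgeR), the smallest p-value of the 39 genes. Within libraries 2, 3 and 5 the log2 difference was 1.02, and within libraries 10 to 13 it was 1.11.

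*Syt12* (ENSMUSG00000049303, chr19:4445908-4477447), which lacks the residues that bind calcium, had 1691, 1667, 1259.7 and 1568 normalized counts in controls and 3786, 2455 and 2648 in mutants. Mutant library 5 was the highest, and the groups did not overlap. Its log2 fold change was 0.94 (SE 0.163, adjusted p = 0.0148, edgeR), with 1.17 in libraries 2, 3 and 5 alone and 0.85 in libraries 10 to 13 alone. The exons of *Syt12* overlap another gene over 17.2% of their length, and those of *Syt6* over 8.67%. Of the called genes described below, the exons of *Rab3b* overlap another gene over 9.0% and those of *Doc2b* over 5.53%. Whether reads were counted by strand is not given in the sources used here.

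*Doc2a* and *Doc2b*, a pair of soluble calcium sensors that promote spontaneous and asynchronous release, moved in opposite directions. *Doc2a* (ENSMUSG00000052301, chr7:126847416-126852705) had 1635, 1462, 1164 and 1233 normalized counts in controls and 2785, 2112 and 1878 in mutants. Its lowest mutant library was above its highest control library. *Doc2a* had a log2 fold change of 0.72 (SE 0.160, 95% interval 0.35 to 1.08, adjusted p = 0.0397, edgeR). This call was lost in 6 of 7 fits that left out a library, all but the one without control library 2, with adjusted p between 0.0600 and 0.109 (edgeR). The exons of *Doc2a* overlap those of *Ino80e* over 39.4% of their length, so its counts are uncertain. *Doc2b* (ENSMUSG00000020848, chr11:75768966-75796049) had 1679, 1413, 1528 and 1485 normalized counts in controls and 847, 937 and 965 in mutants. All mutant libraries were far below the lowest control library, and the log2 fold change was -0.74 (SE 0.0888, 95% interval -0.94 to -0.53, adjusted p = 0.00319, edgeR).

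*Syt17* (ENSMUSG00000058420, chr7:118380717-118448222), also called B/K protein and without a transmembrane region, had 1596, 1548, 1846 and 1614 normalized counts in controls and 865, 1058 and 1016 in mutants. Mutants averaged 59.3% of the control level, and the groups did not overlap. Its log2 fold change was -0.75 (SE 0.0998, 95% interval -0.98 to -0.53, adjusted p = 0.00499, edgeR), with -0.86 within libraries 2, 3 and 5 and -0.74 within libraries 10 to 13. *Syt6*, *Syt12*, *Syt17* and *Doc2b* were called in all 14 alternatives.

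*Syt1*, the main sensor of fast synchronous release in the forebrain, was not called. It had 45116, 42648, 54849 and 52535 normalized counts in controls and 34072, 46032 and 41749 in mutants, and mutant library 12 lay within the range of the controls. The log2 fold change was -0.26 with a 95% interval of -0.56 to 0.03 (adjusted p = 0.341, edgeR). With the split of library numbers (2, 3 and 5 against 10 to 13) as a covariate, the adjusted p of *Syt1* was 0.0174 (edgeR), and over the 14 alternatives it ran from 0.0174 to 0.646. *Syt11*, which does not bind calcium and restrains endocytosis, was the most abundant of the group per kb of exon and had 31614, 36974, 34179 and 32107 normalized counts in controls and 29741, 32341 and 31265 in mutants. The libraries overlapped, and the log2 fold change was -0.12 (95% interval -0.31 to 0.08, adjusted p = 0.555, edgeR). The other 6 genes, *Syt3*, *Syt4*, *Syt5*, *Syt7*, *Syt9* and *Syt13*, had log2 fold changes between -0.29 (*Syt9*) and 0.02 (*Syt3*) and were not called, although the mutant libraries of *Syt9* (201, 238 and 219 normalized counts) were all below its controls (245, 255, 305 and 266).

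Of the 6 SNARE and complexin genes, *Stx1a* was the 1 that was called. *Stx1a* (ENSMUSG00000007207, chr5:135023482-135051100) encodes a syntaxin of the presynaptic membrane that takes part in fusion. It had 13498, 13698, 12906 and 13336 normalized counts in controls and 10049.7, 9965 and 9639 in mutants. Both groups were tight and far apart, with means of 13359.7 ± 337 and 9885 ± 217 (SD, n = 4 and 3 pools). The log2 fold change was -0.43 (SE 0.0716, 95% interval -0.60 to -0.27, adjusted p = 0.0120, edgeR) and was near-equal within libraries 2, 3 and 5 (-0.44) and 10 to 13 (-0.42). The call was lost without mutant library 5, 12 or 13 (adjusted p = 0.0530, 0.0621 and 0.0913, edgeR).

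The partners of syntaxin in the SNARE complex did not pass the test. *Vamp2*, the synaptobrevin of the vesicle, had 40655, 41868, 34670.0 and 33527 normalized counts in controls and 38439, 36311 and 33585 in mutants, all within the control range (log2 fold change -0.06, 95% interval -0.30 to 0.18, adjusted p = 0.832, edgeR). *Snap25*, the SNARE of the plasma membrane that supplies a pair of helices, had 32935, 39420.5, 42144 and 38571 in controls and 30493, 34706 and 32441 in mutants, a log2 fold change of -0.23 (adjusted p = 0.269, edgeR). Its groups overlapped through control library 2 alone.

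Complexins bind the assembled SNARE complex. *Cplx2*, the most abundant of them per kb, had 54443, 46720.1, 53159 and 56080.1 normalized counts in controls and 46065, 51095 and 50648 in mutants, with overlapping groups and a log2 fold change of -0.09 (95% interval -0.30 to 0.11, adjusted p = 0.667, edgeR). *Cplx1* had a log2 fold change of -0.16 (95% interval -0.35 to 0.03). *Cplx3*, a complexin known from ribbon synapses of the retina and from subplate neurons, had 874, 1260.3, 799 and 788 normalized counts in controls and 1667, 1119 and 1195 in mutants. Control library 3 was above mutant libraries 12 and 13, and the log2 fold change was 0.51 (95% interval 0.06 to 0.96, adjusted p = 0.210, edgeR). Without control library 3 the adjusted p of *Cplx3* was 0.0434, and with the split of library numbers as a covariate 0.0153, in a range of 0.0153 to 0.487 over 14 alternatives (edgeR, DESeq2 and limma-voom).

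None of the 7 vesicle proteins was called by edgeR with the filter and design used throughout, or by limma-voom, and 1, *Sv2c*, had an unadjusted p of 0.05 or less. *Sv2c*, a form of SV2 found mainly in the basal ganglia, had 2077, 1465, 1739 and 2108 normalized counts in controls and 2418, 2943 and 2737 in mutants. Its mutant libraries were all above its controls, and the log2 fold change was 0.55 (SE 0.135, 95% interval 0.24 to 0.85, adjusted p = 0.0573, edgeR). *Sv2c* was called in 4 of 14 alternatives, by DESeq2 (adjusted p = 0.00510) and by edgeR without a filter on low counts (0.0433), with at least 10 counts in all 7 libraries (0.0447) and with the split of library numbers as a covariate (0.0304), and the highest adjusted p was 0.202, in edgeR without mutant library 12. Of 6 genes of striatal projection neurons, 0 were called by edgeR, DESeq2 or limma-voom, but all 6 had log2 fold changes above 0, the direction of *Sv2c*, with a median of 0.36 and summed normalized counts of 10258 to 15829 in controls and 12262 to 18636 in mutants. Their part in the difference of *Sv2c* was not tested.

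*Syp*, which encodes synaptophysin, the protein most used to mark vesicles, was the most abundant of the 39 genes per kb. It had 66119, 74777, 49044 and 47365 normalized counts in controls and 58946, 46804 and 43716 in mutants. Libraries 2, 3 and 5 were higher than libraries 10 to 13 in both genotypes, and the groups overlapped (log2 fold change -0.25, 95% interval -0.66 to 0.16, adjusted p = 0.546, edgeR). Its exons overlap another gene over 16.8% of their length. *Syn1*, a synapsin that ties vesicles of the reserve pool together, had 24943, 21396, 26987 and 27614 normalized counts in controls and 23594, 29192 and 25013 in mutants. Its groups overlapped, with a log2 fold change of 0.04 (95% interval -0.23 to 0.30, adjusted p = 0.911, edgeR). *Syn2*, *Syn3*, *Sv2a* and *Sv2b* had log2 fold changes of -0.10, 0.09, 0.08 and 0.01 and were not called.

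**Figure D2:**
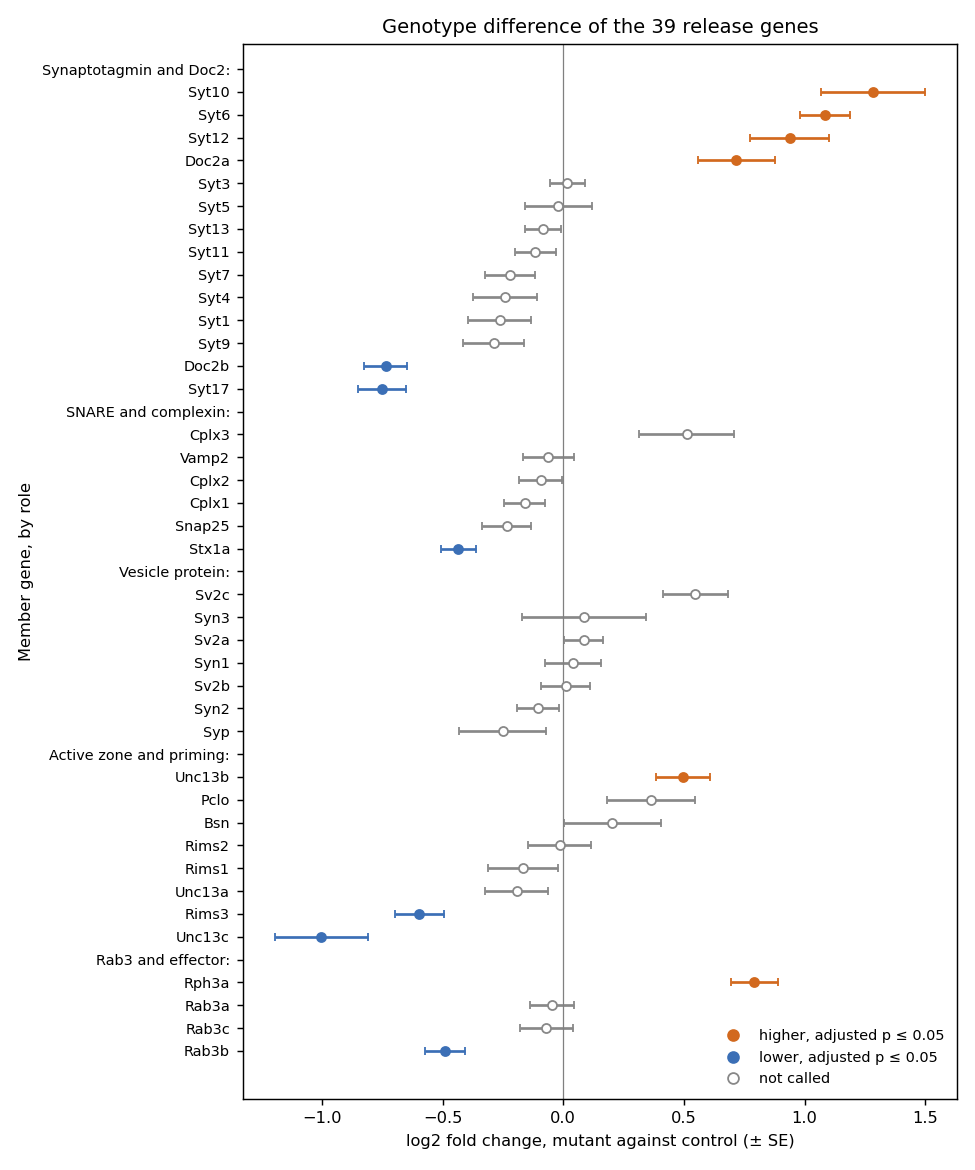
The plot gives the log2 fold change of each of the 39 release genes, mutant against control (horizontal axis, bars are ± 1 SE from edgeR), by role, with called genes filled and others open. The synaptotagmin and Doc2 group runs from -0.75 (*Syt17*) to 1.28 (*Syt10*), whereas the 7 vesicle proteins run from -0.25 (*Syp*) to 0.55 (*Sv2c*), none of them called.

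Of 8 active zone and priming genes, 3 were called, and they included 2 of the 3 Munc13 genes, again in opposite directions. *Unc13b* (ENSMUSG00000028456, chr4:43058953-43264871) encodes Munc13-2, which primes vesicles at a subset of excitatory synapses. It had 2241, 1856, 1931 and 2066 normalized counts in controls and 3344, 2578 and 2635 in mutants. Mutant library 5 was the highest and the groups did not overlap, with a log2 fold change of 0.50 (SE 0.112, 95% interval 0.24 to 0.75, adjusted p = 0.0425, edgeR). The call was lost in 6 of 7 fits that left out a library, all but the one without control library 2 (adjusted p between 0.0725 and 0.112, edgeR).

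*Unc13c* (ENSMUSG00000062151, chr9:73479422-73968966) encodes Munc13-3, best known from cerebellar granule cells. It had 2055, 1389, 2175 and 2168 normalized counts in controls and 742, 1062 and 1111 in mutants. Mutant library 5 was the lowest, control library 3 lay well below the other controls, and the groups did not overlap. The log2 fold change was -1.003 (SE 0.192, 95% interval -1.44 to -0.57, adjusted p = 0.0222, edgeR), with mutants at an average of 49.9% of the control level. The call was lost in 6 of 7 fits that left out a library, all but the one without control library 3 (adjusted p between 0.0547 and 0.0686, edgeR). *Unc13a*, which encodes the Munc13 form used at most forebrain synapses, had a log2 fold change of -0.19 with a 95% interval of -0.49 to 0.10 and was not called.

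RIM proteins tether calcium channels and vesicles at the active zone. *Rims3* (ENSMUSG00000032890, chr4:120854816-120896579) encodes a short form that has only the last C2 domain. It had 3059, 2601, 3176 and 3369 normalized counts in controls and 2068, 2119.7 and 1863 in mutants. The highest mutant library was below the lowest control library, and the log2 fold change was -0.60 (SE 0.102, 95% interval -0.83 to -0.37, adjusted p = 0.0137, edgeR). Without mutant library 12 or 13 the call was lost (adjusted p = 0.0526 and 0.0850, edgeR). The long form *Rims1* had 11607, 9479.8, 13746 and 14463 normalized counts in controls and 10038, 11501 and 11381 in mutants, within the control range (log2 fold change -0.17, 95% interval -0.50 to 0.16, adjusted p = 0.633, edgeR), and *Rims2* had a log2 fold change of -0.02.

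Bassoon and piccolo are the giant scaffolds of the active zone. *Bsn* had 26659.6, 15985, 23004 and 31181 normalized counts in controls and 28780.1, 30377 and 24478 in mutants. The mutants lay within the wide range of the controls, and the log2 fold change was 0.20 (95% interval -0.25 to 0.66, adjusted p = 0.681, edgeR). *Pclo* had a log2 fold change of 0.36 with a 95% interval of -0.05 to 0.78. For both genes the difference was larger within libraries 2, 3 and 5 (0.43 and 0.64) than within libraries 10 to 13 (0.02 and 0.13).

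Of the 4 Rab3 and effector genes, 1 rose and 1 fell. *Rph3a* (ENSMUSG00000029608, chr5:120940499-121010092) encodes rabphilin, which binds Rab3 on vesicles and is also known from the postsynaptic side, where it retains NMDA receptors. It had 16855, 14034, 15019.9 and 15669 normalized counts in controls and 29202, 24459.7 and 26301 in mutants. The groups were far apart, with means of 15395 ± 1183 and 26654 ± 2391 (SD, n = 4 and 3 pools), a 1.73-fold difference. Its log2 fold change was 0.79 (SE 0.0961, 95% interval 0.57 to 1.01, adjusted p = 0.00331, edgeR), with 0.92 within libraries 2, 3 and 5 and 0.73 within libraries 10 to 13, and it was called in all 14 alternatives.

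*Rab3b* (ENSMUSG00000003411, chr4:108879063-108943324), a Rab3 form known for long-term depression at inhibitory synapses, had 2139.7, 2308, 2099 and 1903 normalized counts in controls and 1559, 1466 and 1481 in mutants. The mutant libraries were close to each other and below all controls. With a log2 fold change of -0.49 (SE 0.0830, 95% interval -0.68 to -0.30, adjusted p = 0.0130, edgeR), *Rab3b* was called, and the call was lost without mutant library 12 or 13 (adjusted p = 0.0703 and 0.0844, edgeR). *Rab3a*, the most abundant form per kb, had 19826, 21339.6, 20778 and 21106 normalized counts in controls and 18339.6, 22456 and 19524 in mutants. The mutants spanned the controls, with a log2 fold change of -0.05 (95% interval -0.25 to 0.16, adjusted p = 0.855, edgeR), and *Rab3c* had a log2 fold change of -0.07.

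The called genes were mostly not the abundant ones. Ordered by mean normalized count per kb of merged exon and divided into 3 sets of 13, the genes of the highest set (2896 to 10603 normalized counts per kb) held 2 calls, *Stx1a* and *Rph3a*. The middle set (475 to 2407 per kb) held 2, *Doc2a* and *Rab3b*, and the lowest set (36.03 to 389 per kb) held 8, 4 higher and 4 lower. The median absolute log2 fold change was 0.116 in the highest set, 0.167 in the middle and 0.597 in the lowest. Among the genes of these 3 sets, the forms of the Munc13, Rab3 and RIM families that were not called were the more abundant ones. This did not hold for all forms outside these sets, none of which was called. *Rab3d* (164 per kb) and *Unc13d* (14.1 per kb) stood below the called forms of their families, and *Rims4* (1526 per kb) stood above *Rims3*. *Unc13a* stood at 1368 normalized counts per kb, above *Unc13c* at 174 and *Unc13b* at 105. *Rab3a* stood at 9201 and *Rab3c* at 1742, above *Rab3b* at 525, and *Rims1* at 1659 and *Rims2* at 475, above *Rims3* at 327. The merged exons of *Unc13b* are 22746 bases long, which lowers its level per kb. The order also depends on exon length in the RIM family. By mean normalized count, *Rims3* was above *Rims2* in controls (3051 and 2405) and below it in mutants (2017 and 2380).

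**Figure D3:**
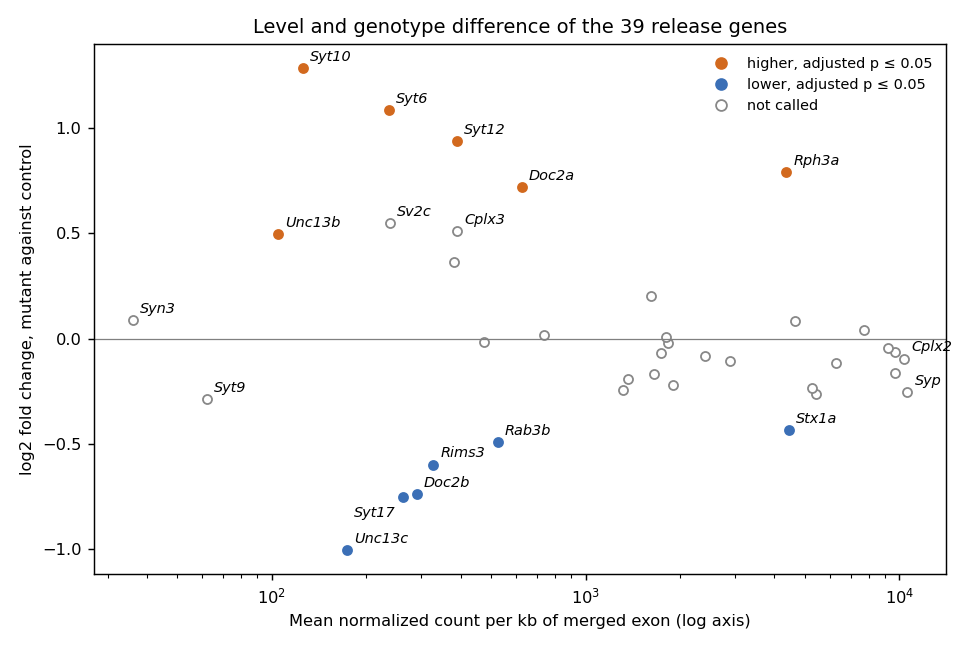
The plot sets the mean normalized count per kb of merged exon of each release gene (horizontal, log axis) against its log2 fold change, mutant against control (vertical), with genes higher in mutants in orange, lower in blue and not called open. Among the 13 most abundant genes, *Stx1a* and *Rph3a* are the only called ones.

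Ratios between paralogs were taken within each library, which removes the scaling between libraries. With 4 and 3 libraries there are 35 groupings, so that the smallest p of the two-sided exact permutation test is 0.0286, and 8 ratios were compared. The log2 ratio of *Unc13a* to *Unc13b* was 3.25, 2.99, 3.14 and 3.27 in controls and 2.36, 2.56 and 2.56 in mutants. These did not overlap, and the ratio fell by 0.67 on the log2 scale (exact permutation p = 0.0286, adjusted over the 8 ratios 0.114). The log2 ratio of *Syt2* to *Syt1* was -4.76, -4.71, -5.13 and -4.96 in controls and -5.90, -5.88 and -6.02 in mutants, again without overlap (difference -1.04, exact permutation p = 0.0286, adjusted 0.114). No ratio passed an adjusted p of 0.05, and with 8 ratios at least 5 would have had to reach the smallest p for any to pass.

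The remaining ratios overlapped between genotypes. Mutant minus control, the log2 differences were -0.07 for *Cplx1* to *Cplx2*, 0.14 for *Syn1* to *Syn2*, 0.07 for *Sv2a* to *Sv2b*, -0.15 for *Rims1* to *Rims2*, 0.02 for *Rab3a* to *Rab3c* and -0.18 for *Vamp1* to *Vamp2*, with exact permutation p-values between 0.0857 and 0.943. *Vamp1*, the synaptobrevin of the fastest terminals, had 2371, 2358, 2884 and 2815 normalized counts in controls and 1989, 2463 and 2197 in mutants and was not called (log2 fold change -0.23, 95% interval -0.48 to 0.01, adjusted p = 0.306, edgeR). With the split of library numbers as a covariate, its adjusted p was 0.0250, in a range of 0.0250 to 0.594 over 14 alternatives (edgeR, DESeq2 and limma-voom).

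**Figure D4:**
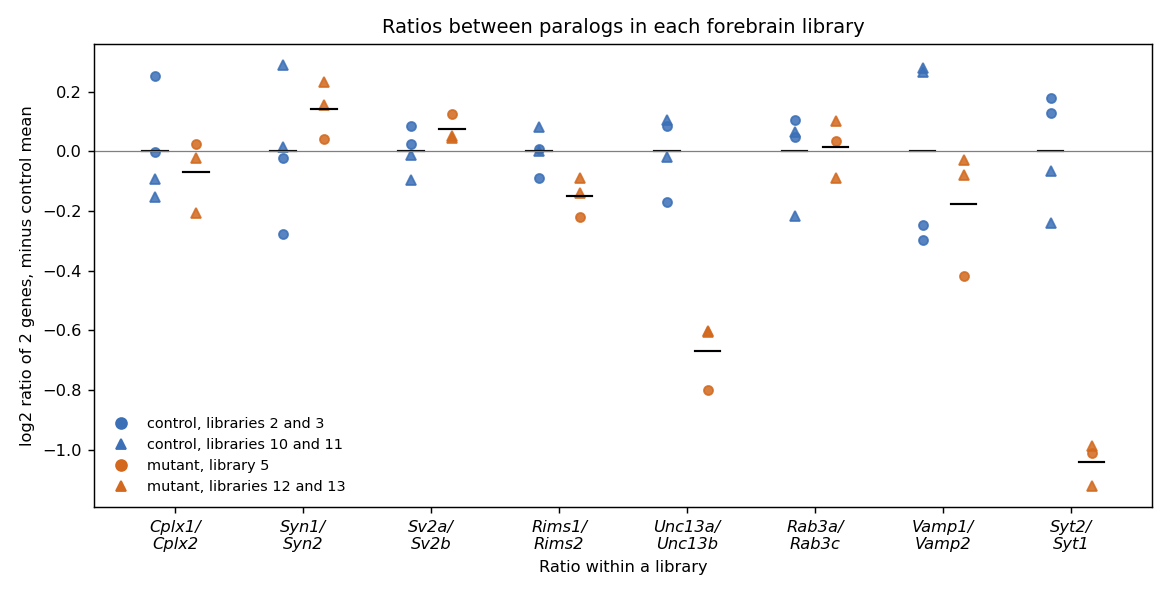
The plot gives the log2 ratio of the genes of 8 pairs in each library, less the control mean of that ratio (vertical axis), with controls in blue, mutants in orange, circles for libraries 2, 3 and 5, triangles for libraries 10 to 13 and black bars for group means. The *Unc13a* to *Unc13b* and *Syt2* to *Syt1* ratios lie lower in all 3 mutant libraries than in all 4 control libraries, and the other 6 pairs overlap.

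Other genes of vesicle release, 63 in a list of the same pathway, were read beside the 39. Of the 61 tested, 6 were called, 9.84% beside 4.85% of all tested genes, 2 higher and 4 lower, with a median log2 fold change of -0.01. *Syt2* (ENSMUSG00000026452, chr1:134646677-134762593) had 1659, 1625, 1562 and 1686 normalized counts in controls and 569, 780.4 and 645 in mutants. The controls were nearly equal and the mutants far below them, at 40.7% of the control mean. *Syt2* had a log2 fold change of -1.30 (SE 0.112, 95% interval -1.55 to -1.04, adjusted p = 0.000674, edgeR). *Pvalb*, the calcium-binding protein of the basket cells, had a log2 fold change of -3.05.

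*Syt16*, a synaptotagmin that does not bind calcium, had 3071, 3293, 3128 and 2948 normalized counts in controls and 2309, 2088 and 2122 in mutants, without overlap (log2 fold change -0.52, SE 0.0748, adjusted p = 0.00722, edgeR). *Stxbp6*, or amisyn, which competes with synaptobrevin for syntaxin, had 1604, 1882, 1960.1 and 1784 in controls and 1138, 1199.6 and 1254 in mutants, also without overlap (log2 fold change -0.59, SE 0.0884, adjusted p = 0.00772, edgeR). *Baiap3*, a Munc13 relative that acts in dense-core vesicle release, had 400.3, 316, 395 and 265 in controls and 150.4, 207 and 213 in mutants (log2 fold change -0.86, SE 0.191, adjusted p = 0.0406, edgeR). All 3 genes fell, and *Syt2* and *Stxbp6* were called in all 14 alternatives.

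The 2 that rose were *Rab27b* and *Cadps2*. *Rab27b*, a Rab that recruits granules and vesicles, had 932, 1064, 1222 and 1131 normalized counts in controls and 1446, 1709.9 and 1828 in mutants (log2 fold change 0.61, SE 0.115, adjusted p = 0.0203, edgeR). *Cadps2*, or CAPS2, a priming factor of dense-core vesicles, had 3197, 3548, 3866 and 3875 in controls and 4439, 4829 and 5572 in mutants (log2 fold change 0.45, SE 0.106, adjusted p = 0.0489, edgeR). The groups did not overlap for either gene. The call of *Cadps2* was lost in all 7 fits that left out a library (adjusted p between 0.0577 and 0.200, edgeR). It was also lost with limma-voom (adjusted p = 0.0518) and with RLE factors (0.0506, edgeR). The call of *Baiap3* was lost in all left-out fits but the one without control library 11 (0.0554 to 0.121, edgeR). That of *Rab27b* was lost without mutant library 12 or 13 (0.0885 and 0.113) and that of *Syt16* without mutant library 13 (0.0538).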

How the data were processed

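Forebrain RNA of 7 pools was read as 36-base single ends. Per the labels and the study's methods, the authors trimmed reads with cutadapt 1.9.1, mapped them with Bowtie2 2.2.9 to Ensembl 84 transcripts (GRCm38) and deposited RSEM 1.2.31 expected counts per gene, not normalized. A read that fits several genes is split among them by RSEM, so overlapping genes and close copies have less certain counts. From the authors' own DESeq2 comparison (fold changes and p-values) only gene IDs and symbols were read. Exon lengths, positions and overlaps came from the deposited annotation.

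Expected counts were rounded, filtered (at least 10 counts in at least 3 libraries), scaled by TMM and tested with edgeR 4.0.16 (R 4.3.3, quasi-likelihood, no covariate), with Benjamini-Hochberg adjustment and a threshold of 0.05. The SE is the size of the log2 fold change divided by the root of F, and intervals use edgeR's degrees of freedom. The fit was also run on simulated data, the outcome of which is not given here. Alternatives were DESeq2 1.42.0, limma-voom (limma 3.58.1), RLE and upper quartile factors, other filters, each library left out, a pseudocount of 1 in the ratios, and the split of library numbers (2, 3 and 5 against 10 to 13) as a covariate.

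Columns name a genotype and a library number only. Replicates within a genotype differed by more than sampling noise (chi-square per degree of freedom 9.93 to 70.4). The genes, lists and alternatives were chosen with earlier results of these data known. Values in every library are given for each called gene and, per role, the 2 most abundant per kb and the 2 with the smallest p. Further genes named with values (*Snap25*, *Syt9*, *Pvalb*) were chosen after their values were seen.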

Additional observations from a re-analysis of the deposited data

Results flagged for a closer look

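*Unc13c* had 1389 normalized counts in control library 3, farther from the other 3 controls (2055 to 2175) than Dixon's 95% limit for 4 samples allows, with a gap of 0.848 of the range against 0.829. This was 1 of 38 sets of controls tested, and chance passes this limit in about 1 set in 20. The library lies nearest to the mutants, and without it *Unc13c* was called at a log2 fold change of -1.13 (adjusted p = 0.00748, edgeR, in a range of 1.27e-05 to 0.0686 over 14 alternatives with edgeR, DESeq2 and limma-voom).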

How the results depend on the processing

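The 12 calls among the 39 genes were all kept with DESeq2, limma-voom, RLE or upper quartile factors, other filters on low counts and the split of library numbers as a covariate, which called between 12 and 15 of the 39. Leaving out 1 library left between 5 and 11, with 5 without mutant library 12 and 5 without mutant library 13. *Syt6*, *Syt12*, *Syt17*, *Doc2b* and *Rph3a* were called in all 14 alternatives. Of the other release genes, between 2 and 5 were called when a library was left out, with 3 without mutant library 12 and 2 without 13, and 14 with the split of library numbers as a covariate, in place of 6. DESeq2 called 7 of them, and limma-voom and RLE factors 5 each, without *Cadps2*. Over all genes, 954 calls became 1690 with DESeq2, 2205 with that covariate, and between 302 and 971 without a library. The sign of *Syn1*, not called at a log2 fold change of 0.04, reversed when a library was left out (-0.053 without mutant library 12, -0.032 without control library 3, range -0.053 to 0.11), as did that of *Rab3a* (0.026 without mutant library 5, range -0.13 to 0.026). Why these values changed between alternatives was not tested. No fit separated the smaller number of samples from the library that was left out. Fits without a control library called between 9 and 11 of the 39, and fits without a mutant library between 5 and 8. Among single genes, 364 alternative values kept direction and side of the threshold, 45 lost the threshold, 8 gained it and 3 reversed. The log2 differences of the 8 paralog ratios moved by less than 1 SD between replicates under every alternative run. The least abundant of the 39 genes had a mean of 231 normalized counts. No paired analysis was possible because the columns carry no replicate numbers of the labels.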

Other observations

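Calls in lists of genes that act before and after fusion are given here, beside the 4.85% called among all tested genes. Of 6 vesicular transmitter transporters, edgeR, DESeq2 and limma-voom each called 0, with 2 at an unadjusted p of 0.05 or less (edgeR), and edgeR with the split of library numbers as a covariate called 1, *Slc18a3*, which loads acetylcholine. *Slc17a7*, the transporter that loads glutamate in cortical excitatory neurons, had 73436, 62495, 66984 and 68887 normalized counts in controls and 79132, 90141 and 73564 in mutants (log2 fold change 0.25, 95% interval 0.04 to 0.47, adjusted p = 0.203, edgeR). *Slc32a1*, which loads GABA, had 4131, 3298, 4104 and 4635 in controls and 3077, 4699 and 4020.4 in mutants (log2 fold change -0.04, 95% interval -0.40 to 0.32, adjusted p = 0.936, edgeR). These genes and those named in the next paragraph were chosen after their values were seen.

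Of 9 genes that retrieve vesicle membrane by endocytosis, the 3 tools called 0 (1 at an unadjusted p of 0.05 or less by edgeR) and edgeR with that covariate 2, *Dnm3* and *Bin1*, with log2 fold changes from -0.41 (*Bin1*) to 0.25 (*Synj1*). Of 10 further vesicle proteins, edgeR and limma-voom called 0 (3 at an unadjusted p of 0.05 or less by edgeR) and DESeq2 called 1, *Syngr3*, a synaptogyrin, at a log2 fold change of -0.23 in edgeR. *Synpr*, a relative of synaptophysin, had 2122, 2691, 3051 and 2705 normalized counts in controls and 1321, 2084 and 2143 in mutants (log2 fold change -0.52, adjusted p = 0.175, edgeR); control library 2 lay below mutant library 13, and *Synpr* and *Sncb* were the 2 of the list called with that covariate. Of 14 further SNAREs and SNARE regulators tested, edgeR called 1, of 5 further synaptotagmins and Doc2 proteins 2, and of 17 further active zone, priming and Rab genes 3. DESeq2 called the same numbers, limma-voom 1, 2 and 2, and edgeR with that covariate 3, 2 and 4.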
